A study of Homo sapiens with 4 samples.

Results

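The ubiquitin-specific protease (USP) genes were followed in T47D cells, a human ER+ breast cancer line, infected with virus encoding FDXR sh434 or shControl, where sh434 is a short hairpin RNA directed at FDXR, the mitochondrial flavoprotein ferredoxin reductase. Infected cells were selected with antibiotic and grown in RPMI medium with serum, and 4 Affymetrix arrays were hybridised, 2 for each condition. The labels call them biological replicates without saying whether the infections were separate, so p-values measure only the spread between these samples. Only 1 hairpin was profiled, the labels name a retrovirus and the methods a lentivirus, and the source names of 3 arrays give other cell line names, while the growth protocol of all 4 names T47D. Members were taken as every symbol of the array annotation that starts with USP and a digit, which gave 51 of 14679 named genes on 53 of 38598 probes. A gene with 2 probes, as for USP2 and USP17L9P, was represented by the brighter probe. USP17L12 and USP17L9P then had the same values on all 4 arrays within 0.0001, so the 51 genes form 50 signals. Of these, 46 stand for proteases or protease-like proteins, 3 are noncoding RNAs (USP2-AS1, USP30-AS1 and USP27X-DT) and 1 is USP6NL, a GTPase activator of RAB proteins that carries the letters but is not a protease. USP17L9P is annotated as a transcribed pseudogene. USP9X, USP10, USP11, USP27X, USP32 and USP36 have no probe with a symbol and were not analysed here.

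Ubiquitin is joined to proteins by a chain of activating, conjugating and ligating enzymes, and deubiquitinases take it off again. The USP enzymes are cysteine proteases and form the largest family of human deubiquitinases. By removing or trimming ubiquitin chains they set how long a protein lasts, where it goes or whether it signals, and single members are known for p53 control, DNA repair, histone marks, endosomal sorting, mitophagy and interferon signalling. USP18 is the exception in its substrate, since it removes the ubiquitin-like protein ISG15. The USP17L genes, also called DUB genes, are short intronless copies that lie head to tail in a repeat that varies in copy number between people, and they are known as genes switched on quickly by cytokines. In the RefSeq gene table (GRCh38.p14) 29 USP17L genes are listed, 23 on chromosome 4 and 6 on chromosome 8. The 3 USP17L genes with a symbol on the array all lie on chromosome 4.

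The array medians of the log2 signal were 4.76 and 4.77 on the FDXR sh434 arrays and 4.76 and 4.78 on the shControl arrays. Over all probes (as a description, since probes are not replicates) Pearson's r was 0.994 for the pair of FDXR sh434 arrays, 0.991 for the pair of shControl arrays and 0.987 to 0.988 for arrays of different conditions. No probe carries the symbol FDXR, so its depletion was not analysed here. All 9 measured luminal markers, which include ESR1, GATA3 and KRT18, lay at or above the median signal of all probes. So did 3 of the 4 measured fibroblast markers, while the 2 leukocyte and 2 basal markers lay below it. At an adjusted p under 0.05 in limma, 0.402% of all probes were lower and 0.298% higher in FDXR sh434 cells. Of 4 fibroblast markers 1 was lower and 0 were higher in FDXR sh434 cells. This was LUM (limma adjusted p = 0.0213), at 3.97 and 4.21 in FDXR sh434 cells against 6.04 and 5.87 in shControl cells. The mean signals of the 4 genes lay between 2.26 and 5.35 in FDXR sh434 cells and between 2.15 and 5.95 in shControl cells. LUM had a log2 fold change of -1.86, while VIM, DCN and THY1 were at 0.10, 0.11 and -0.06 and passed in neither fit. The LUM call was lost in limma without any 1 array (adjusted p = 0.173 to 0.229) and held with the signal-dependent spread without each array. By the unadjusted p from limma, 9.44% of all probes were higher and 7.82% lower, and with the signal-dependent spread 5.02% and 3.41%. Of the luminal markers 0 passed in limma, with unadjusted p under 0.05 for 2 on each side. With the signal-dependent spread 2 were higher and 1 lower. These were SPDEF and KRT18 at log2 fold changes of 0.52 and 0.26 and PGR, the progesterone receptor, at -0.75 (adjusted p = 0.00578, 0.0105 and 8.26e-05 with the signal-dependent spread, 1.17e-05 to 0.635 over all alternatives of the 3). The part of LUM and of these luminal markers in the results that follow was not tested. In bulk RNA, fewer cells of a type and less RNA per cell cannot be told apart. Signal over background is unknown, so a dim probe may carry little specific signal, and probe levels are not compared between genes.

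The USP17L signal rose, the only USP signal that passed in limma. The signal shared by USP17L12 and USP17L9P was 6.37 and 5.88 on the FDXR sh434 arrays and 4.58 and 4.65 on the shControl arrays (log2 signal). Both FDXR sh434 arrays lay above both shControl arrays, and they differed more from each other than the shControl arrays did. The signal was 2.85-fold higher, with a mean log2 signal of 6.12 ± 0.345 in FDXR sh434 cells against 4.61 ± 0.0488 in shControl cells (SD, n = 2 arrays each). On the log2 scale the difference was 1.51 (standard error, SE, 0.18), with a limma adjusted p = 0.0449 over all probes. When limma let the spread between arrays follow the signal, with robust estimation (below called the signal-dependent spread), the adjusted p was 0.00078, and over all alternatives it ranged from 0.000762 to 0.229. Without any 1 of the 4 arrays the log2 fold change ran from 1.27 to 1.76, and the call was lost in limma without the trend, with an adjusted p = 0.173 without FDXR sh434 replicate 2, 0.229 without FDXR sh434 replicate 1, 0.212 without shControl replicate 1 and 0.222 without shControl replicate 2. With the signal-dependent spread, a fit added after seeing the data for the arrays left out in turn, the call held in all 4.
USP17L15, another copy, has a probe of its own. Its log2 signal was 3.88 and 3.78 in FDXR sh434 cells and 2.22 and 2.94 in shControl cells. The conditions did not overlap, but the shControl arrays were far apart, and the level lay under the median signal of all probes, 4.76. The log2 fold change of USP17L15 was 1.25 (SE 0.241), which did not pass in limma (adjusted p = 0.0934) and passed with the signal-dependent spread (adjusted p = 0.0115, range over all alternatives 0.00166 to 0.414). Without shControl replicate 1 it was 0.89 and without shControl replicate 2 it was 1.61.
The dimmer probe of USP17L9P did not show this difference. It read 1.70 and 2.06 on the FDXR sh434 arrays and 1.59 and 1.96 on the shControl arrays, and the conditions overlapped, with a log2 fold change of 0.10 (SE 0.185, limma adjusted p = 0.822). Only 4.7% of all probes had a lower mean signal than this dimmer probe. It may carry little specific signal, so it cannot decide whether USP17L9P changed. The brighter probe of USP17L9P cannot be told apart from that of USP17L12. Signals of near-identical copies can be split or shared between probes, so the level of any single copy is uncertain.
Probe identifiers between those of the USP17L probes include 13 probes without a symbol, whose genes are not named here. They were looked at after the values of the USP17L probes had been seen. In all 13 both FDXR sh434 arrays lay above both shControl arrays, which held for 25.6% of all probes. A log2 fold change over 1 was found in 12 of them, against 110 of all 38598 probes (0.285%). Over the 13 probes the median log2 fold change was 1.53, with a range of 0.35 to 1.61. In limma 8 of them passed, and 12 with the signal-dependent spread. Of all probes, 0.298% and 5.02% were higher in these fits. A set of 6 of these probes had the same values on all arrays, 6.22 and 5.88 in FDXR sh434 cells and 4.38 and 4.50 in shControl cells, so that these probes are not independent measurements. Over the whole array, 18 probes lay within 0.3 of the USP17L12 signal on every array, 16 of them without a symbol and 12 of these 16 among the 13 probes above.

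**Figure D1:**
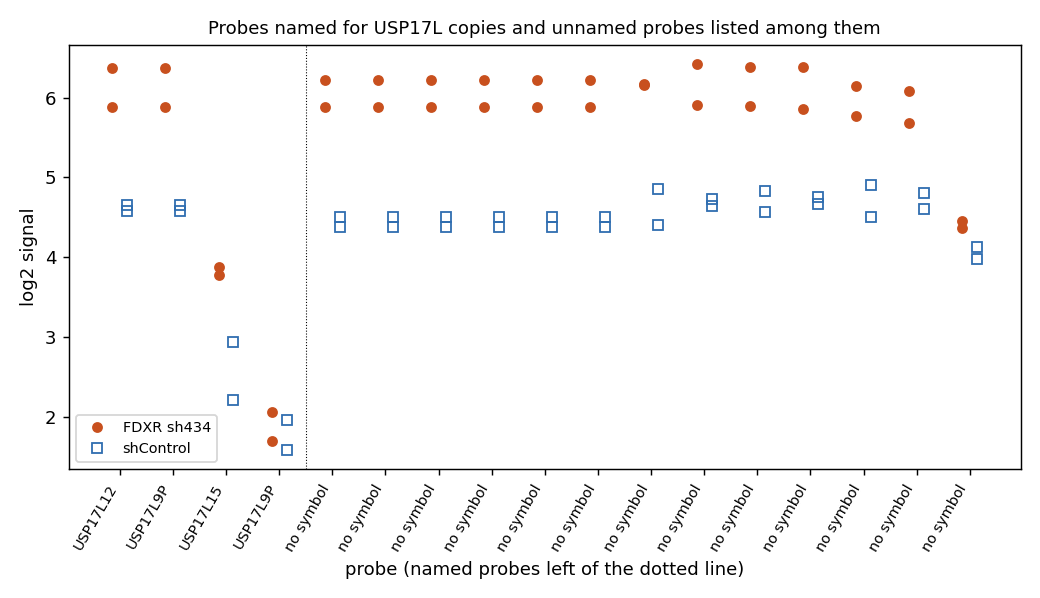
Log2 signal (vertical axis) of the 4 probes named for USP17L copies, left of the dotted line, and of the 13 probes without a symbol whose identifiers lie between them. Each filled circle is an FDXR sh434 array and each open square a shControl array; USP17L12 and the brighter USP17L9P probe show the same values, 5.88 and 6.37 in FDXR sh434 cells against 4.58 and 4.65 in shControl cells, and the dimmer USP17L9P probe overlaps between conditions.

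Over the 50 signals, limma called 1 higher, the USP17L12/USP17L9P signal, and 0 lower at an adjusted p under 0.05, against 0.298% of all probes higher and 0.402% lower (0.7% in either direction). The unadjusted p was under 0.05 for 13 signals on the higher and 4 on the lower side, against 9.44% and 7.82% of all probes. With the signal-dependent spread, 10 signals (20%) were higher and 3 (6%) were lower, where 5.02% of all probes were higher and 3.41% lower (8.43% in either direction). Both FDXR sh434 arrays lay above both shControl arrays for 25 signals (50%), against 25.6% of all probes, and below them for 10 (20%), against 23.1%. The log2 fold change was positive for 37 signals and negative for 13, with a median of 0.16 against 0.004 over all probes. After quantile normalization 31 were positive and the median was 0.10. These shares are a description. Among the 50 signals, 40 lay at or above the median signal of all probes, and the all-probe shares were not matched for signal. With the signal-dependent spread a bright probe can have a smaller SE, as for USP22 (0.0596) beside the dim USP26 (0.174). Of the 37 signals that passed in neither fit, 26 had a log2 fold change within 0.2 of 0.

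**Figure D2:**
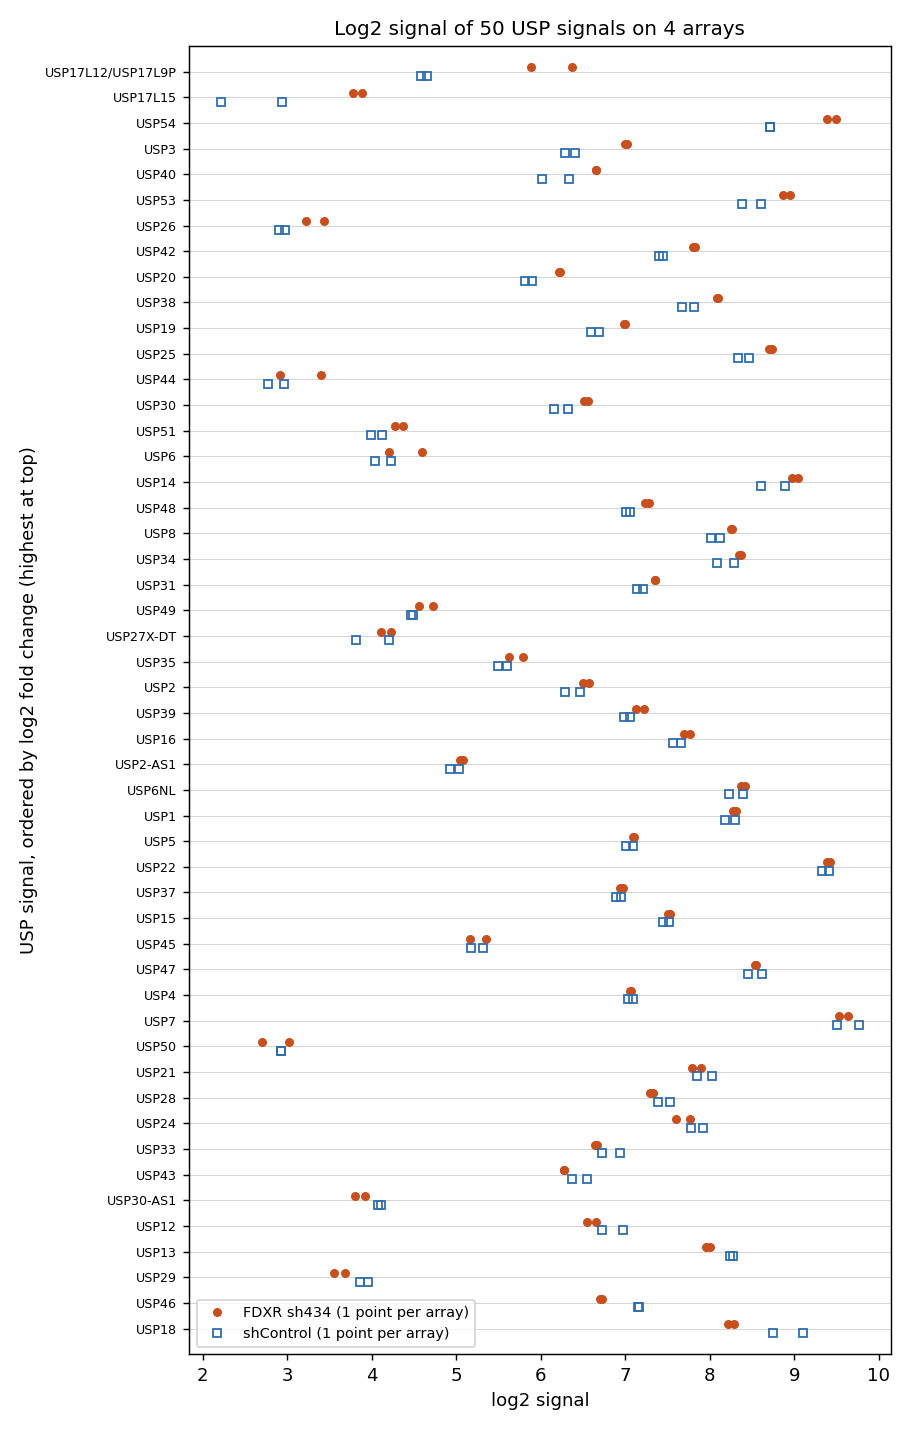
Log2 signal (horizontal axis) of the 50 USP signals on each of the 4 arrays, ordered by log2 fold change with the highest at the top. Filled circles are FDXR sh434 arrays and open squares shControl arrays, and for 15 signals the conditions overlap.

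**Figure D3:**
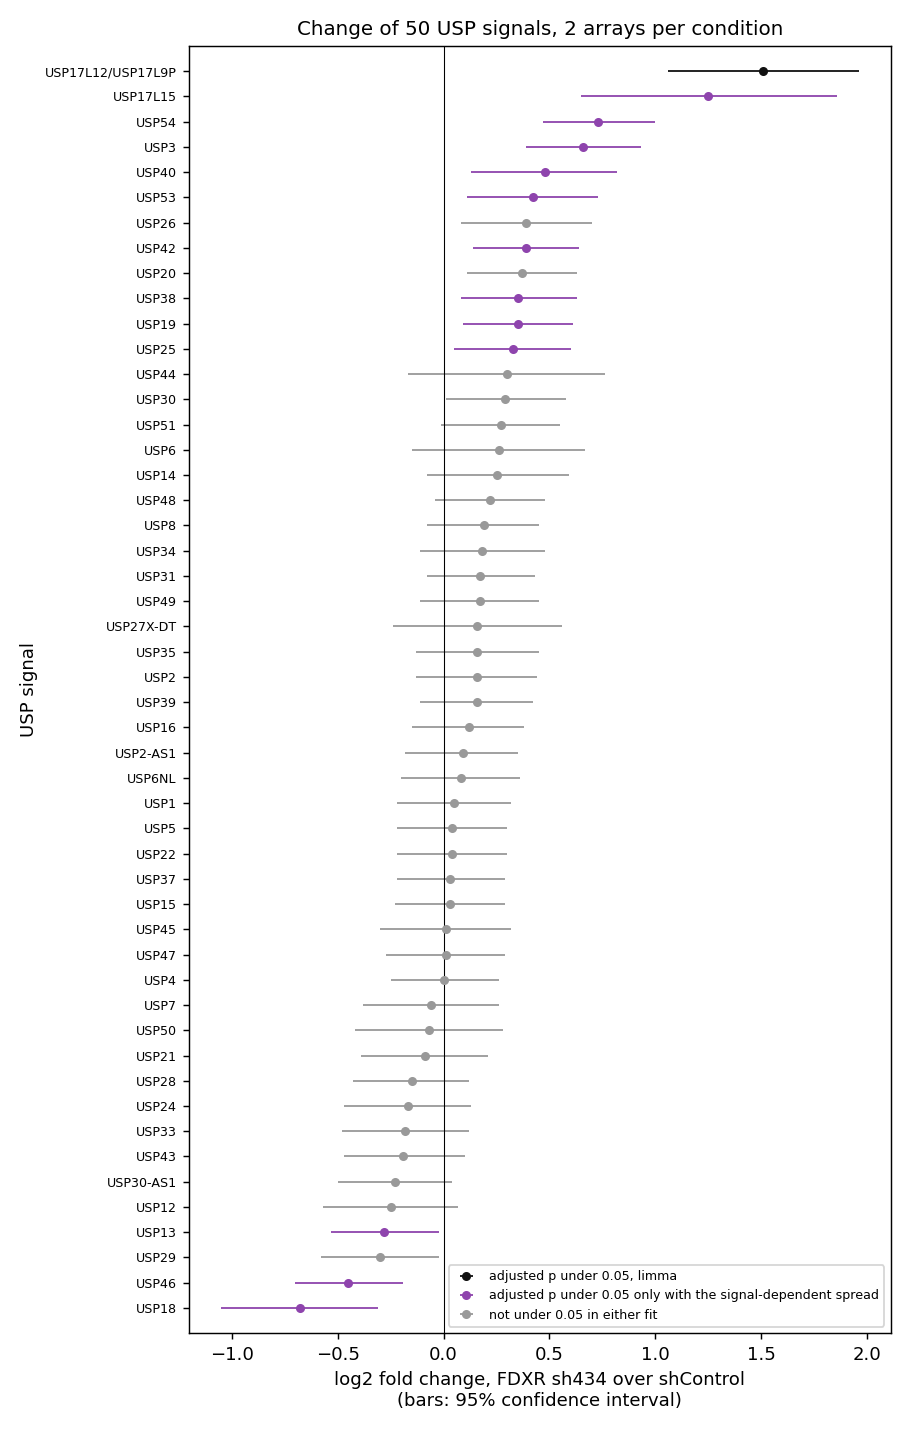
Log2 fold change of FDXR sh434 over shControl for each of the 50 USP signals, with its 95% confidence interval from limma. The black point, USP17L12/USP17L9P at 1.51, passed an adjusted p of 0.05, and 12 more, in purple, passed only with the signal-dependent spread.

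Among single-copy genes, USP54 and its paralog USP53 were both higher in FDXR sh434 cells with the signal-dependent spread. USP54 has long been counted as an inactive member of the family. Its log2 signal was 9.49 and 9.39 on the FDXR sh434 arrays and 8.71 and 8.71 on the shControl arrays. The groups were far apart compared with the spread inside them. The difference was 1.66-fold, or 0.73 on the log2 scale (SE 0.105), which missed the threshold in limma (adjusted p = 0.0575) and passed with the signal-dependent spread (adjusted p = 0.000202, range over all alternatives 0.000202 to 0.369). Without any 1 array it stayed between 0.68 and 0.79, and USP54 and the USP17L12/USP17L9P signal were the only 2 of the 13 signals whose call with the signal-dependent spread held without each of the 4 arrays. USP53, tied to tight junctions and to inherited cholestasis, read 8.86 and 8.95 in FDXR sh434 cells and 8.60 and 8.38 in shControl cells. It differed by 0.42 on the log2 scale (SE 0.123, limma adjusted p = 0.187, 0.0143 with the signal-dependent spread, 0.00153 to 0.541 over all alternatives).
USP3 takes ubiquitin off histones H2A and H2B. Its log2 signal was 7.02 and 7.0 in FDXR sh434 cells and 6.41 and 6.29 in shControl cells, a 1.58-fold difference with no overlap. The log2 fold change of 0.66 had an SE of 0.106 and did not pass in limma (adjusted p = 0.0711). It passed with the signal-dependent spread (adjusted p = 0.00295, range over all alternatives 0.00248 to 0.393).
The other 5 signals that were higher only with the signal-dependent spread had smaller differences than USP54 and USP3. USP40 read 6.65 and 6.65 in FDXR sh434 cells and 6.33 and 6.02 in shControl cells, and its log2 fold change of 0.48 (adjusted p = 0.0433 with the signal-dependent spread, 0.00675 to 0.531 over all alternatives) was 0.32 without shControl replicate 2 and 0.63 without shControl replicate 1. Its call held only without shControl replicate 1. For USP42, which can stabilise p53, the values were 7.83 and 7.80 in FDXR sh434 cells against 7.45 and 7.40 in shControl cells, with a log2 fold change of 0.39 (SE 0.101). USP38, which limits interferon induction through the kinase TBK1, read 8.10 and 8.08 in FDXR sh434 cells against 7.81 and 7.67 in shControl cells, a log2 fold change of 0.35 (SE 0.109). These were 3 signals with tightly grouped FDXR sh434 arrays.
USP19, a deubiquitinase anchored in the endoplasmic reticulum, read 6.98 and 7.0 in FDXR sh434 cells and 6.59 and 6.69 in shControl cells, a log2 fold change of 0.35 (SE 0.105). USP25, which edits ubiquitin on TRAF proteins in cytokine signalling, read 8.74 and 8.70 in FDXR sh434 cells and 8.46 and 8.33 in shControl cells, a log2 fold change of 0.33 (SE 0.109). With the signal-dependent spread the adjusted p of USP42, USP38, USP19 and USP25 was 0.0127, 0.0229, 0.0462 and 0.0229, in limma without it 0.154 to 0.225, and over all alternatives it ranged from 0.00468 to 0.601. Of the 10 signals higher with the signal-dependent spread, 2 were called without FDXR sh434 replicate 1 and 2 without FDXR sh434 replicate 2. USP19 was also not called without shControl replicate 1 (adjusted p = 0.0797).

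Promoters in RefSeq (GRCh38.p14, 250 bases before to 50 bases after a gene's start) were available for 36 of the 51 genes in 49 windows, among them 7 genes higher and 2 lower with the signal-dependent spread. Of 10 short motifs searched on both strands, CCGGAAG, the core of ETS factor sites (CTTCCGG on the other strand), was found in 22.4% of the windows of the members and in 10.3% of all 35116 windows. It was found in 3 of the 7 higher genes, USP3, USP38 and USP19, and in 0 of the 2 lower genes, USP13 and USP46. It was also found in 8 genes that passed in neither fit, USP1 among them. Of the other motifs, a palindromic NRF1 motif was found in 10.2% of the members' windows against 8.32% of all windows, CCAAT in 26.5% against 34.6%, the E-box CACGTG in 6.12% against 7.26% and the AP-1 motif TGANTCA in 0 of 49 windows against 7.71%. The interferon response motif was found in 0 of 49 windows against 3.57%, and these 49 windows do not include USP18. The windows of USP38 and USP19, which hold the ETS motif, and of USP13, which lacks it, are given 5′ to 3′ on the gene's strand, with the motif in capitals.
USP38 (chr4:143184667-143184966, plus strand): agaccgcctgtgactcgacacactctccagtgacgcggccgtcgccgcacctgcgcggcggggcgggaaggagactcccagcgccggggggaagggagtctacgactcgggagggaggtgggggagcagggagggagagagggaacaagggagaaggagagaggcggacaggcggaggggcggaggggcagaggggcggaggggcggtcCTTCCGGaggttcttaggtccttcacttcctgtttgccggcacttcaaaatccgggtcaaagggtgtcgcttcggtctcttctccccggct
USP19 (chr3:49120774-49121073, minus strand): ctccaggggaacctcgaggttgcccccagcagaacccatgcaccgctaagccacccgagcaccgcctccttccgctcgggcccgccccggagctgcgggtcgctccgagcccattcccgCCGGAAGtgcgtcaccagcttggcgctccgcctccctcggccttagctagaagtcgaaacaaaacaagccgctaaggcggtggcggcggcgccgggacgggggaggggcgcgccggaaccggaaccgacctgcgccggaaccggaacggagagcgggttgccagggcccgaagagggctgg
USP13 (chr3:179652790-179653089, plus strand): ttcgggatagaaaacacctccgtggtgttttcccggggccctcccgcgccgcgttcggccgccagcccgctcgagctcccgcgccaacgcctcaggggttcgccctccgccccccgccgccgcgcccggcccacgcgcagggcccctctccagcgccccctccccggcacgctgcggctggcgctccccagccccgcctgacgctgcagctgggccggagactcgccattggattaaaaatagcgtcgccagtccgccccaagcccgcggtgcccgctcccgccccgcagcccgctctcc
Counted from the annotated start, with -1 as the base before it, the motif began at position -41 in USP38, where it stands on the opposite strand, and at -131 in USP19. A match is a description of the sequence and not a site of binding.

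USP18, USP46 and USP13 were the 3 signals lower in FDXR sh434 cells with the signal-dependent spread. USP18 removes ISG15 from proteins and also sits on the interferon receptor chain IFNAR2, where it dampens signalling, and interferon itself induces the gene. Its log2 signal was 8.21 and 8.28 on the FDXR sh434 arrays and 8.75 and 9.10 on the shControl arrays. The groups did not overlap, and the shControl arrays were spread more widely. The log2 fold change was -0.68 (SE 0.147), or 1.6-fold lower, which did not pass in limma (adjusted p = 0.115) and passed with the signal-dependent spread (adjusted p = 0.00427, range over all alternatives 0.000141 to 0.463). It was -0.51 without shControl replicate 2 and -0.85 without shControl replicate 1. USP18 belongs to a gene list that the study chose on these samples, so its direction is not independent evidence. Without either FDXR sh434 array, 0 of the 3 lower signals passed with the signal-dependent spread.
USP46 read 6.72 and 6.70 in FDXR sh434 cells and 7.16 and 7.15 in shControl cells. This was a tight difference in both conditions, with a log2 fold change of -0.45 (SE 0.1, limma adjusted p = 0.121, 0.0121 with the signal-dependent spread, 0.0115 to 0.472 over all alternatives). USP46 is activated by the WD40 proteins WDR48 and WDR20, as is its close paralog USP12. USP12 read 6.65 and 6.55 in FDXR sh434 cells and 6.97 and 6.73 in shControl cells, a log2 fold change of -0.25 (SE 0.128, limma adjusted p = 0.392 and 0.237 with the signal-dependent spread). WDR48 had a log2 fold change of -0.18 and WDR20 one of 0.32, and neither passed (adjusted p = 0.457 and 0.265 from limma). USP1, the third enzyme that WDR48 activates, works on FANCD2 and PCNA, and its values of 8.31 and 8.27 in FDXR sh434 cells overlapped those of 8.30 and 8.18 in shControl cells, with a log2 fold change of 0.05 (95% confidence interval -0.22 to 0.32).
USP13, tied to autophagy, read 7.96 and 8.0 in FDXR sh434 cells and 8.27 and 8.24 in shControl cells. Its log2 fold change was -0.28 (SE 0.101, limma adjusted p = 0.257, 0.0398 with the signal-dependent spread, 0.0307 to 0.639 over all alternatives). Its paralog USP5, which takes apart free ubiquitin chains, read 7.10 and 7.09 in FDXR sh434 cells against 7.01 and 7.09 in shControl cells, a log2 fold change of 0.04 (95% confidence interval -0.22 to 0.30). USP25 and its paralog USP28, which works on MYC, had log2 fold changes of 0.33 and -0.15, and USP20 and USP33, which both act on the beta-2 adrenergic receptor, had 0.37 and -0.18. Whether paralogs differed from each other was not tested.

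Several well-known members passed in neither fit. USP7, which controls MDM2 and p53, read 9.63 and 9.53 in FDXR sh434 cells and 9.76 and 9.51 in shControl cells, and its log2 fold change was -0.06 (95% confidence interval -0.38 to 0.26). USP22, the deubiquitinase of the SAGA coactivator, read 9.42 and 9.39 in FDXR sh434 cells against 9.33 and 9.41 in shControl cells, with 0.04 (95% confidence interval -0.22 to 0.30). For USP14, which works on the proteasome, the values were 8.97 and 9.04 in FDXR sh434 cells against 8.89 and 8.60 in shControl cells, and the log2 fold change of 0.25 had an interval of -0.08 to 0.59. These intervals include 0, and they do not show that the levels were equal.
USP30 sits on the outer mitochondrial membrane and opposes Parkin-driven mitophagy. It read 6.51 and 6.56 in FDXR sh434 cells and 6.32 and 6.16 in shControl cells, a log2 fold change of 0.29 without overlap that did not pass (SE 0.112, limma adjusted p = 0.273 and 0.137 with the signal-dependent spread). Its overlapping antisense gene USP30-AS1 had a log2 fold change of -0.23 (adjusted p = 0.358). Endosomal USP8, which protects EGFR from degradation, had one of 0.19 (adjusted p = 0.434). USP2, which acts on cyclin D1 and on FASN, had one of 0.16 at its brighter probe and -0.07 at its dimmer probe (adjusted p = 0.541 and 0.905), and USP2-AS1 one of 0.09.
The TGF-beta regulators USP4 and USP15 were at 0.00 and 0.03, and USP37 and USP47, which act on cyclin A and on DNA polymerase beta, at 0.03 and 0.01. At the low end of the members that did not pass, USP33 read 6.67 and 6.64 in FDXR sh434 cells and 6.94 and 6.73 in shControl cells, and USP43 read 6.28 and 6.27 in FDXR sh434 cells and 6.37 and 6.55 in shControl cells, with log2 fold changes of -0.18 and -0.19 (adjusted p = 0.502 and 0.463). Of the 50 signals 10 had a mean under the median signal of all probes, and of these 1, USP17L15, passed with the signal-dependent spread. Those that did not pass include USP26 and USP29, known from testis and as an imprinted gene, with log2 fold changes of 0.39 and -0.30 (adjusted p = 0.207 and 0.269), whose conditions did not overlap.

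Genes that work with the USP enzymes were counted from lists of known pathway members, partners and substrates. Most of the measured genes lay at or above the median signal. The shares of all probes given beside them were not matched for signal. Of 6 measured genes of ISG15 conjugation, 1 was lower and 0 higher in limma (unadjusted p under 0.05 for 3, each lower), 3 were lower and 0 higher with the signal-dependent spread, and in all 6 the FDXR sh434 arrays read lower than either shControl array. Of all probes, 0.402% were lower in limma, 3.41% with the signal-dependent spread and 7.82% by the unadjusted p, and 23.1% read lower without overlap. ISG15 itself fell by 1.20 on the log2 scale (adjusted p = 0.026), at 7.36 and 7.47 in FDXR sh434 cells against 8.58 and 8.65 in shControl cells. Its call was lost in limma without any 1 of the 4 arrays (adjusted p = 0.209 to 0.248), and with the signal-dependent spread it held without each of them (0.00393 at most). HERC5, the ligase that attaches ISG15, had a log2 fold change of -0.60 and its relative HERC6 one of -0.36 (adjusted p = 0.125 and 0.213 from limma, 0.0366 and 0.0201 with the signal-dependent spread). With any 1 array left out, these ran from -0.71 to -0.48 for HERC5 and from -0.44 to -0.27 for HERC6. In limma with the replicate number as a block, neither passed (adjusted p = 0.197 and 0.255). The conjugating enzyme UBE2L6 and TRIM25 did not pass, at -0.23 and -0.17 (adjusted p = 0.343 and 0.471 from limma). The list's median log2 fold change was -0.30, against 0.004 over all probes, and these genes lay on the same side as USP18. The list was chosen with earlier results of these data known, so this shared direction is not independent evidence. Whether the 6 genes vary separately from each other was not tested.
Deubiquitinases of other families include the UCH, OTU, Josephin and JAMM enzymes. The list counted here also holds CYLD, USPL1 and PAN2, which carry a USP or USP-like domain. Of 24 measured, 0 passed in limma, while the unadjusted p was under 0.05 for 5 with higher and 2 with lower signal, and 2 were higher and 1 lower with the signal-dependent spread, with a median log2 fold change of 0.08. The all-probe shares were 9.44% higher and 7.82% lower by the unadjusted p and 5.02% and 3.41% with the signal-dependent spread. PAN2 is a subunit of the poly(A) nuclease, and its USP-like domain is inactive as a protease. It read 6.94 and 6.59 in FDXR sh434 cells and 6.06 and 6.04 in shControl cells. Its log2 fold change was 0.71 (adjusted p = 0.104 from limma, 0.00854 with the signal-dependent spread). UCHL3 had one of 0.46 and the OTU enzyme OTUD6B one of -0.56 (adjusted p = 0.213 and 0.122 from limma, 0.0301 and 0.0142 with the signal-dependent spread). With any 1 array left out, PAN2 ran from 0.54 to 0.89, UCHL3 from 0.28 to 0.64 and OTUD6B from -0.68 to -0.43. In limma with the replicate number as a block, none of these passed (adjusted p = 0.146, 0.232 and 0.182). OTUD5 and VCPIP1, 2 bright members, had 0.12 and -0.14.
For the partner and substrate lists the shares of all probes were 0.298% higher and 0.402% lower in limma. By the unadjusted p they were 9.44% and 7.82%, and with the signal-dependent spread 5.02% and 3.41%. Of 11 partner subunits 0 passed in limma, while the unadjusted p was under 0.05 for 2 with higher signal. With the signal-dependent spread 1 was lower. This was GMPS, a partner of USP7, at -0.25 (adjusted p = 0.0472), while the USP8 partner STAM and the USP10 partner G3BP1 had 0.16 and 0.11. With any 1 array left out, GMPS ran from -0.32 to -0.18. In limma with the replicate number as a block, GMPS did not pass (adjusted p = 0.37). Substrates are listed for the action of USP enzymes on their proteins, while the arrays measured RNA. Of 12 known substrates 1 was higher and 0 lower in limma (unadjusted p under 0.05 for 1 higher and 2 lower). With the signal-dependent spread 2 were higher and 2 lower. FASN, a substrate of USP2, rose by 1.24 on the log2 scale (adjusted p = 0.0334). Its call was lost in limma without any 1 of the 4 arrays (adjusted p = 0.212 to 0.283), and with the signal-dependent spread it held without each of them (0.00513 at most). MCL1, a substrate of USP9X, was at 0.25, while PCNA, a substrate of USP1, and CDC25A, a substrate of the USP17L2 enzyme, were at -0.48 and -0.48 (adjusted p = 0.29, 0.118 and 0.125 from limma, 0.0309, 0.00225 and 0.0351 with the signal-dependent spread). With any 1 array left out, MCL1 ran from 0.24 to 0.27, PCNA from -0.54 to -0.43 and CDC25A from -0.56 to -0.41. In limma with the replicate number as a block, none of these passed (adjusted p = 0.362, 0.191 and 0.188). CCNA2 and CDC20 passed in neither fit, at -0.16 and 0.10. The activating enzymes UBA1 and UBA6 were at 0.01 and -0.21 and passed in neither fit (adjusted p = 0.965 and 0.374 from limma, with 0 of the 2 under an unadjusted p of 0.05).

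**Figure D4:**
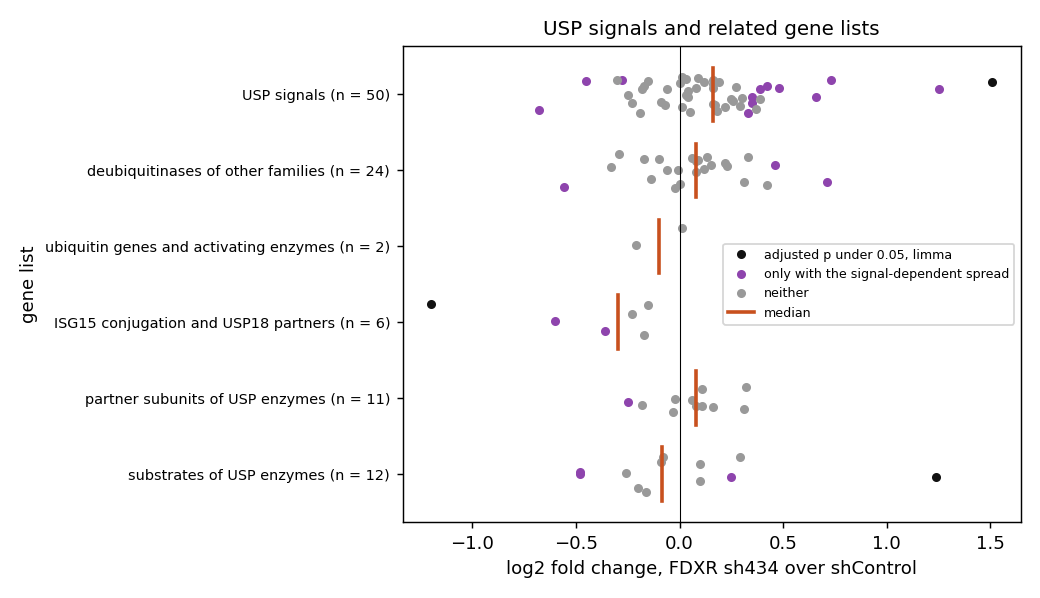
Log2 fold change (horizontal axis) of every measured gene of the USP family and of 5 related lists, 1 point per gene, with the median of each list as a vertical bar. Black points passed an adjusted p of 0.05 in limma and purple points only with the signal-dependent spread; all 6 genes of ISG15 conjugation lie below 0.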

How the data were processed

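T47D RNA was hybridised to 4 Affymetrix arrays, with 2 for each condition. The authors deposited log2 signals per probe. The steps from scanner intensities to these values are not stated in the sources used here. Among tools, limma 3.50.3 is named in the submitters' processing notes. The annotation gave 1 symbol for 15715 probes and none for 22883. FDXR sh434 was set against shControl with limma 3.58.1 (R 4.3.3, functions lmFit and eBayes), without trend or filter and with Benjamini-Hochberg adjustment over 38598 probes at 0.05. The paper's methods name limma and this threshold. The fit had 2 residual and 3.45 prior degrees of freedom. The alternatives were an intensity trend with and without robust estimation, a replicate block, 2 scalings, a filter on dim probes, named probes only, repeated values counted 1 time, the mean of a gene's probes, array weights and each array left out. The members and lists were chosen with earlier results of these data known. Genes named are signals past the threshold in either fit, the 6 brightest, the 6 highest and 6 lowest among probes reaching the median signal, every USP17L signal, 6 genes for their role, close paralogs and, per list, up to 4 genes past the threshold and the 2 brightest others. Other genes are named for contrast after their values were seen. The fits were run on simulated arrays with planted changes in probes at or above the median signal. The simulated noise followed the intensity trend, so this run cannot decide between the fits. Signal over background is unknown. Python 3.11.15, pandas 2.3.3, numpy 2.4.6 and matplotlib 3.10.9 were also used.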

Additional observations from a re-analysis of the deposited data

How the results depend on the processing

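The count of USP signals past the threshold depended on how limma estimated the spread. It was 1 higher and 0 lower in limma, and 10 higher and 3 lower both with the signal-dependent spread and with the intensity trend alone. Without dim probes, which left 40 signals, it was 6 higher and 2 lower, with a median log2 fold change of 0.10, and with named probes only it was 4 higher. With array weights it was 0 higher. After quantile normalization the median was 0.10, against 0.16. With any 1 array left out, limma called 0 signals higher, and the median ran from 0.09 to 0.17. With the signal-dependent spread and 1 array left out, added after seeing the data, 2 to 11 signals were higher (11 without shControl replicate 1, 9 without shControl replicate 2) and 0 to 3 lower, with medians of 0.09 to 0.17 (0.11 without FDXR sh434 replicate 2). The cause of these shifts was not tested, beyond the fewer arrays and probes of some settings. The other alternatives gave the same counts, with medians of 0.14 to 0.16, and none turned the direction of a named signal that passed. Replicate numbers gave no pairing, since the deviations of same-numbered arrays from their condition means correlated at 0.002 across probes, and with the replicate number as a block 0 signals were higher, and ISG15, FASN and LUM did not pass (adjusted p = 0.0677, 0.0717 and 0.058). The number of arrays and the unknown signal over background limit the precision.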
